A study of Mus musculus with 11 samples.

Results

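Chemokines are small secreted proteins that guide leukocytes, and chemokine receptors are the seven-pass membrane proteins through which cells sense them. All probe sets of the array that carry a single gene symbol of a chemokine ligand (Ccl, Cxcl, Cx3cl or Xcl with a number) or of a chemokine receptor (Ccr, Cxcr, Cx3cr, Xcr or Ackr with a number) were taken, and no measured value entered that choice. This gave 48 of 12422 probe sets tested, 29 for 24 ligand genes and 19 for 19 receptor genes. A further 4 probe sets, for Ccl19, Ccl21 and Ccl27, carry several symbols and were left out. Ligands and receptors are described apart, in each of the 11 samples.

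The samples were whole mammary glands bearing PN1a (n = 5) or PN1b (n = 6) hyperplasias, taken 8 weeks post-transplantation and hybridized to Affymetrix MG_U74Av2 arrays. Both lines descend from p53-null mammary epithelium, having arisen as outgrowths in opposite glands of 1 mouse, and were kept by serial transplantation. The host was a wildtype Balb/c mouse whose fat pad had been cleared of its own epithelium, so leukocytes recruited from the host were p53-wildtype. The comparison asked how the chemokine system differed between PN1a and PN1b, which differ in how readily they form tumors.

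In this gene family, inflammatory ligands are switched on by signals such as TNF and IL-1 and act mainly on Ccr1 to Ccr3, Cxcr2 and Cxcr3 of monocytes, granulocytes and effector T cells. Homeostatic ligands such as Cxcl12, Cxcl13 and Cxcl14 are made constantly by stroma or epithelium, and the atypical receptors of the Ackr group bind chemokines without the usual G protein signal. In the mammary gland, macrophages and eosinophils drawn in by chemokines take part in the growth of the ducts.

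Values are log2 of the deposited intensity, and a difference is PN1a minus PN1b. A probe set was called at an adjusted p under 0.05 (limma, all 12422 probe sets) and a fold of at least 1.5. Nothing in the labels says that the samples of a line came from separate mice, so each n, SD and p-value counts samples and reflects only how far they vary, which may be technical. The titles of PN1a 1 and PN1a 2 open with a single number, those of PN1a 3 to 5 and of PN1b 5 and 6 with letters (called titled by letters here, with PN1b 6 in a form of its own that also has a number), and those of PN1b 1 to 4 with number ranges. Whether a number range stands for a pool of mice is not said. The titles also have an ending, which all PN1a samples share with PN1b 5 and 6 alone. PN1a 1 and PN1a 2 differed from the remaining 9 samples in the 3 controls for murine 18S ribosomal RNA, which read 119 to 276 (intensity) in them and 3.07 to 32.7 elsewhere, and results are given with and without them. The median intensity was 8.57 to 9.51 per sample, and precision is limited by how few arrays there are. Different probe sets bind their targets differently, so each gene is compared only with itself. The sums given for marker lists are an exception. They add intensities of different probe sets and are set mostly by the brightest few.

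Of the 29 ligand probe sets, 1 was higher in PN1a and 0 were lower, beside 0.869% and 1.62% of all probe sets tested. At an unadjusted p under 0.05 limma placed 3 ligand probe sets higher and 5 lower, beside 7.65% and 11.3% of all probe sets tested, shares that serve for all later counts of this kind. Of the 19 receptor probe sets limma called 0 in either direction, with 3 higher and 1 lower at an unadjusted p under 0.05. The methods' t-test, two-sided on log values (unadjusted p under 0.01, fold of 1.5) placed 1 ligand probe set and 2 receptor probe sets higher, beside 2.18% of all, and 2 ligand probe sets and 0 receptor probe sets lower, beside 3.56%. The median log2 fold change was -0.37 over the ligand probe sets, 0.12 over the receptor probe sets and -0.01 over all probe sets tested. Every PN1a sample lay above every PN1b sample for 1 member, Ccl12, beside 1.58% of all probe sets, and below for 0 members, beside 2.38%.

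The called ligand was Ccl12, a mouse monocyte attractant that acts through Ccr2. Its log2 intensity was 3.40, 3.10, 2.90, 3.39 and 3.55 in PN1a 1 to 5, and ran from 1.76 over a median of 2.30 to 2.71 in PN1b. The groups did not overlap, and the samples titled by a number lay among the other PN1a samples. The signal was weak, with a mean of 2.73 beside a median of 3.14 over all probe sets. PN1a averaged 3.27 ± 0.26 (SD, n = 5) against 2.28 ± 0.36 (SD, n = 6) for PN1b, a log2 fold change of 0.98 ± 0.21 (SE) or 1.98-fold (limma, adjusted p = 0.0296). In a whole gland, fewer cells of a type and less RNA per cell cannot be told apart.

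The difference of Ccl12 held its size in smaller sets of samples, while the call did not hold. It was 1.0 (log2) without PN1a 1 and PN1a 2 (adjusted p = 0.0865), 0.91 among the samples with the shared title ending (5 PN1a, 2 PN1b, adjusted p = 0.62) and 0.92 among the samples titled by letters (adjusted p = 0.52). With the title ending as a block the adjusted p was 0.386 (fixed) or 0.0526 (random). Leaving out 1 sample at a time kept the call for 5 of the 11 samples and lost it for PN1a 1, PN1a 4, PN1a 5, PN1b 1, PN1b 3 and PN1b 4, with adjusted p between 0.0182 and 0.074.

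Among the receptors, Ccr2, the monocyte receptor for Ccl2 and Ccl12, read 4.80, 3.0, 3.76, 3.87 and 3.51 (log2) in PN1a 1 to 5 and 1.49, 2.05 and 3.52 (lowest, median, highest) in PN1b. PN1b 1 to 4 lay below every PN1a sample, and PN1b 6 lay above PN1a 2 and PN1a 5. The log2 fold change was 1.48 ± 0.38 (2.78-fold), short of the threshold (adjusted p = 0.0572). Without PN1a 1 and PN1a 2 it was 1.40 (adjusted p = 0.112), and among the samples titled by letters 0.51 (adjusted p = 0.659).

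Ccr1, a receptor of monocytes and neutrophils for Ccl3, Ccl5, Ccl6 and Ccl9, read 3.71, 3.04, 2.09, 3.31 and 2.68 in PN1a 1 to 5 and 0.37, 1.53 and 2.51 (lowest, median, highest) in PN1b. A single PN1a sample, PN1a 3, lay below the highest PN1b sample. Its log2 fold change was 1.43 ± 0.36 (2.70-fold, adjusted p = 0.0561), 1.16 without PN1a 1 and PN1a 2 (adjusted p = 0.206), and 0.79 among the samples titled by letters (adjusted p = 0.679). On log2(value + 1), the scale of the study's own table of these samples, added here after the data were seen, Ccr1 (adjusted p = 0.0422), Ccr2 (adjusted p = 0.0453) and Ccl12 (adjusted p = 0.0234) were called higher, beside 1.21% of all probe sets, and Cxcl14 lower (adjusted p = 0.047), beside 2.22%. The methods' t-test called the same 3 higher (unadjusted p = 0.00687, 0.00734 and 0.00068). Ccr1, Ccr2 and Ccl12 were among the genes that the study picked from these samples, so their direction is not independent evidence.

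Markers of macrophages and monocytes moved with these 3 genes. Of 18 such markers 5 were called higher in PN1a and 0 lower, with all 18 fold changes above 0 and a median log2 fold change of 1.16. The called ones were Aif1 (1.58 ± 0.24, adjusted p = 0.00405), Tyrobp (1.76 ± 0.39), Ctss (1.29 ± 0.29), Cd68 (1.11 ± 0.27) and C1qb (2.20 ± 0.53). Without PN1a 1 and PN1a 2 Aif1 was called at 1.42 (adjusted p = 0.0245), and the other 4 lay at 1.10 to 1.57 with adjusted p of 0.0726 to 0.189. Summed, the 18 markers reached an intensity of 1160 to 1890 in PN1a against 420 to 1100 for PN1b. Cd14, not called (0.20 ± 0.48, adjusted p = 0.862), was the brightest of the 18 in every sample except PN1a 1 and weighed heavily in these sums. The part of these markers in the result was not tested.

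2 homeostatic ligands lay lower in PN1a without passing the limma threshold. Cxcl14, made by epithelia, read 4.87, 4.13, 5.12, 4.92 and 4.92 in PN1a 1 to 5 and 5.02, 5.72 and 6.19 (lowest, median, highest) in PN1b. PN1a 3 alone exceeded the lowest PN1b sample, PN1b 5. PN1a minus PN1b came to -0.90 ± 0.24 (adjusted p = 0.065), -0.70 without PN1a 1 and PN1a 2 (adjusted p = 0.195), -0.56 with the title ending as a fixed block (adjusted p = 0.584) and -0.36 among the samples titled by letters (adjusted p = 0.762). The methods' t-test over all samples gave an unadjusted p of 0.00429.

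Cxcl13, the B cell attractant that acts on Cxcr5, read 1.30, 1.71, 1.14, 2.93 and 2.41 in PN1a 1 to 5 and 2.61, 2.97 and 3.93 (lowest, median, highest) in PN1b. PN1a 4 alone lay within the PN1b range. PN1a minus PN1b came to -1.26 ± 0.34 (adjusted p = 0.0701) and to -0.73 among the samples titled by letters (adjusted p = 0.725), and the methods' t-test over all samples gave an unadjusted p of 0.00972. Of 3 genes listed as lymph node stroma markers, Cr2 was not called (-0.39 ± 0.28, adjusted p = 0.479). Called lower in PN1a were Glycam1 (-4.16 ± 0.74, adjusted p = 0.0109) and Madcam1 (-0.82 ± 0.19, adjusted p = 0.0386). These were -2.70 (adjusted p = 0.0069) and -0.85 (adjusted p = 0.0719) without PN1a 1 and PN1a 2. Summed, the 3 genes reached an intensity of 7.31 to 30.6 in PN1a against 70.0 to 221 for PN1b. Glycam1 read 5.89 to 7.69 (log2) in PN1b, where it was the brightest of them in every sample. The 7 B cell markers summed to 82.3 to 150 in PN1a against 107 to 244 for PN1b, with Pou2af1 called lower (-1.86 ± 0.19, adjusted p = 0.00013). Jchain, not called (-1.75 ± 0.68, adjusted p = 0.185), was the brightest of the 7 in every sample except PN1a 2. Of the 7 fold changes 3 lay above 0, with a median of -0.43. Which cells of the gland expressed these listed genes, and their part in the result, was not tested.

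**Figure D1:**
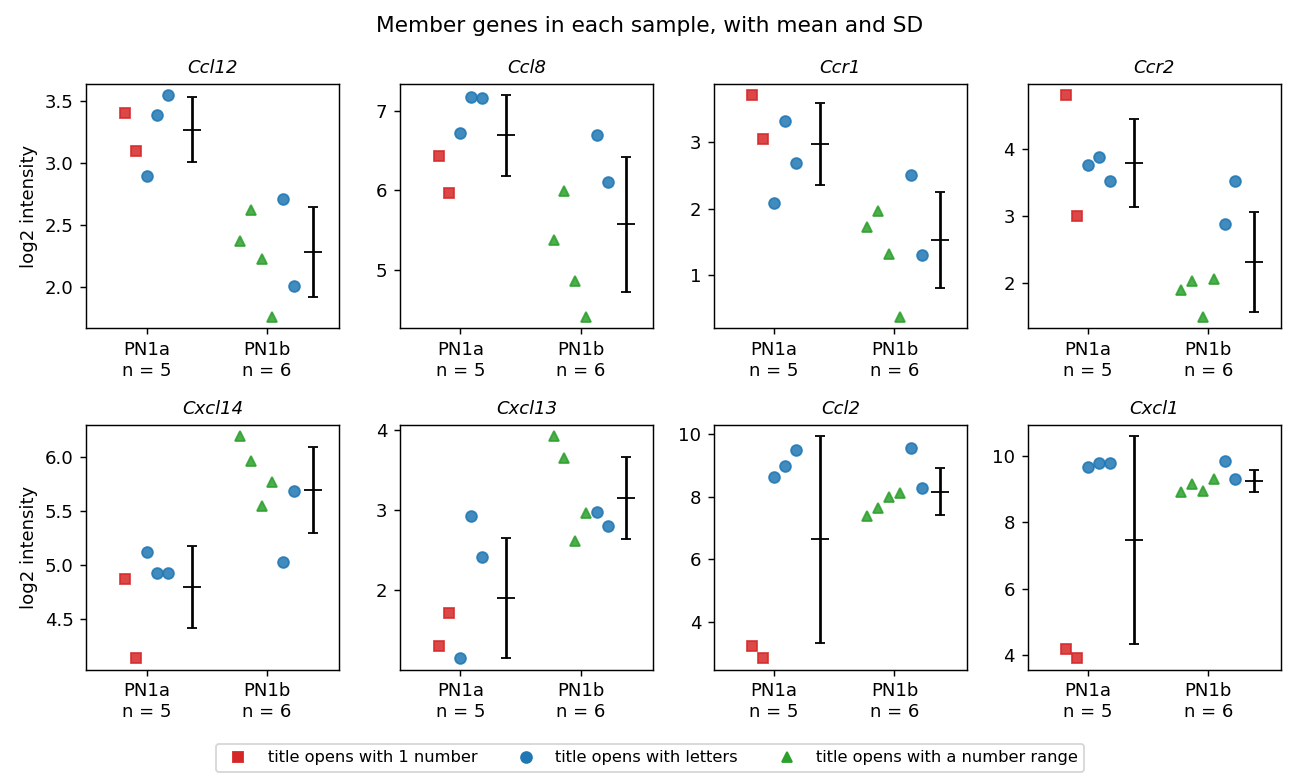
Log2 intensity of 8 member genes in each sample, by line, with the mean and SD at the right of each group (PN1a n = 5, PN1b n = 6) and the symbol giving the form of the sample title. Ccl12 separates the lines, Ccr1, Ccr2, Cxcl14 and Cxcl13 overlap in few samples, and for Ccl2 and Cxcl1 the PN1a samples titled by a number lie far below all others.

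Many of the inflammatory ligands, but not Ccl12, Ccl8, Ccl6 or Ccl9, showed another pattern: PN1a 1 and PN1a 2 lay far below all other samples of either line. Both samples lay below each of the other 9 for 16 ligand and 2 receptor probe sets, beside 10.1% of all probe sets tested. A narrower count chosen after the values were seen took genes for which both samples lay lowest and, on average, at least 4-fold below PN1a 3 to 5. It held for 12 of the 24 ligand genes (Ccl2, Ccl3, Ccl4, Ccl5, Ccl7, Ccl11, Cxcl1, Cxcl2, Cxcl5, Cxcl9, Cxcl10 and Cx3cl1) and 2 of the 19 receptor genes (Ackr1 and Ackr3), 15 probe sets in all, beside 1.56% of all probe sets tested. In these ligands the gap between PN1a 3 to 5 and PN1a 1 and 2 ran from 4.41-fold to 111-fold. In the other 12 ligand genes PN1a 3 to 5 read between 0.651 and 2.75 times the level of PN1a 1 and 2, and in the other 17 receptor genes between 0.373 and 2.89 times.

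**Figure D2:**
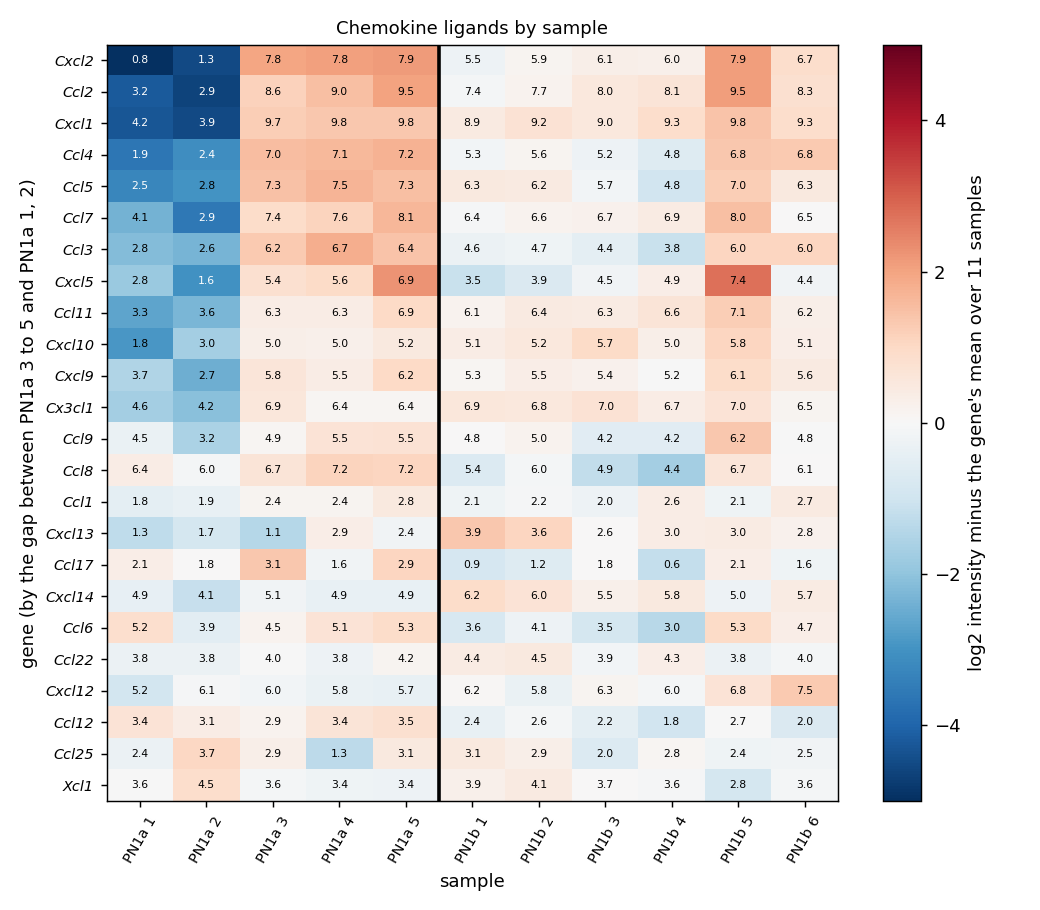
Log2 intensity of the 24 ligand genes (printed values) in each of the 11 samples, coloured by the difference from the gene's own mean and ordered by the gap between PN1a 3 to 5 and PN1a 1 and 2. The upper 12 genes are lowest in PN1a 1 and PN1a 2, with Cxcl2 at 0.8 and 1.3 beside 5.5 or more in the other samples.

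Of the 14 genes with this drop 8 have a promoter entry, and 3 of these (Cxcl1, Cxcl2 and Cxcl10) hold the NF-kappaB consensus, while Ccl3, Cxcl9, Cx3cl1, Ackr1 and Ackr3 do not. Upstream sequence is printed for those 3, chosen because they hold it, and for Ccl12, the called ligand, and its neighbour Ccl8, which did not share the drop and do not hold it. The choice thus fixes how the printed sequences differ. Each is the 250 bases before the start of the gene, 5′ to 3′ on the coding strand, from RefSeq (GRCm38.p6): Cxcl1 at chr5:90890995-90891244 (+), Cxcl2 at chr5:90903649-90903898 (+), Cxcl10 at chr5:92348890-92349139 (-), Ccl12 at chr11:82101595-82101844 (+) and Ccl8 at chr11:82114935-82115184 (+). Capitals mark matches on either strand to the NF-kappaB consensus, AP-1 (TGANTCA), the interferon response element (GAAANNGAAA) and a TATA box (TATAAA), and overlapping matches run together.
Cxcl1: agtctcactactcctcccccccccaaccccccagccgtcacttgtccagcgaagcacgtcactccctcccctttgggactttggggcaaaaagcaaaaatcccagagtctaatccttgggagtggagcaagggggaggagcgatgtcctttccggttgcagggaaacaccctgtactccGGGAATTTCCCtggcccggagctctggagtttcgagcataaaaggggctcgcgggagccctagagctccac
Cxcl2: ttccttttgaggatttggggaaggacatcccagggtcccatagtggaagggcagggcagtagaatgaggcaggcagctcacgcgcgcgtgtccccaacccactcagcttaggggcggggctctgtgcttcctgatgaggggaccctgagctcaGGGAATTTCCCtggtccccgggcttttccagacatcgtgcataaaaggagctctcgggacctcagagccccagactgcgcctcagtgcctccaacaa
Cxcl10: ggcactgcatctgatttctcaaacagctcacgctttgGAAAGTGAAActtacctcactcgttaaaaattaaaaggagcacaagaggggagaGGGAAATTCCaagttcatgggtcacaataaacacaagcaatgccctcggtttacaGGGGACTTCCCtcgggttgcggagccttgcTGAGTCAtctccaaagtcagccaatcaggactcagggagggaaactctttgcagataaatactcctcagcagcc
Ccl12: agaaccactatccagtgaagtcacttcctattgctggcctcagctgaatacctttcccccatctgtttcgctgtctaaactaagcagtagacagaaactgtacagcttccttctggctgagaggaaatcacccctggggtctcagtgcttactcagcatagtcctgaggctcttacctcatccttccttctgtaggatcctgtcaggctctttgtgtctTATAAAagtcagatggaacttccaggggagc
Ccl8: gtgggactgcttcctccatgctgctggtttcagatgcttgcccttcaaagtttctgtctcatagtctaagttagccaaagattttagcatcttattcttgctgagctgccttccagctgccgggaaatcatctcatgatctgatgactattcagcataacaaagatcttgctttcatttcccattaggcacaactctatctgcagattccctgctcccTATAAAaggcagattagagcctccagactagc

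The Cxcl1 and Cxcl2 sequences each hold 1 palindromic stretch with the NF-kappaB consensus, and Cxcl10 holds matches to that consensus at 2 places beside 1 interferon element and 1 AP-1 match. The capitals in Ccl12 and Ccl8 are a TATA box. Over all 32851 promoters of the table, 7.25% held the NF-kappaB consensus in the same window, 6.75% the AP-1 motif, 2.98% the interferon element and 12.4% the TATA box. Promoters were found for 35 of the 43 member genes. The NF-kappaB consensus was in 5 of 18 ligand promoters (Ccl1, Ccl9, Cxcl1, Cxcl2 and Cxcl10) and in 4 of 17 receptor promoters (Ackr2, Ccr1, Ccr3 and Ccr6). A match is a description of the letters and no evidence of binding.

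Cxcl1, an ELR chemokine that draws in neutrophils through Cxcr2, read 4.18, 3.91, 9.68, 9.79 and 9.79 in PN1a 1 to 5 and 8.90, 9.23 and 9.85 (lowest, median, highest) in PN1b. Its second probe set had the same shape, with 2.97 and 3.38 in PN1a 1 and 2 and 8.50 to 9.73 in the other samples. With all samples the log2 fold change of Cxcl1 was -1.78 ± 1.05 (adjusted p = 0.391), and without PN1a 1 and PN1a 2 it was 0.51 (adjusted p = 0.296).

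Cxcl2, a close relative of Cxcl1, read 0.83, 1.27, 7.77, 7.85 and 7.92 in PN1a 1 to 5 and 5.53, 6.06 and 7.88 in PN1b. PN1a 3 and 4 lay above 5 of the 6 PN1b samples and PN1a 5 above all 6. Its log2 fold change turned from -1.23 ± 1.28 (adjusted p = 0.658) to 1.49 without PN1a 1 and PN1a 2 (adjusted p = 0.118). Cxcl5 ran from 1.59 to 7.38 over the 11 samples, with its highest value in PN1b 5. Their receptor Cxcr2 did not share the pattern. It read 2.82, 1.86, 2.98, 1.71 and 2.84 in PN1a 1 to 5 and 0.63, 2.59 and 2.98 in PN1b, with a log2 fold change of 0.22 ± 0.42 (adjusted p = 0.821).

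The monocyte attractant Ccl2 read 3.25, 2.85, 8.62, 8.97 and 9.49 in PN1a 1 to 5 and 7.37, 8.04 and 9.54 in PN1b. PN1a 1 and 2 lay more than 4 log2 units below the lowest PN1b sample, and PN1a 3 to 5 overlapped with PN1b. The log2 fold change was -1.52 ± 1.13 (adjusted p = 0.509) and turned to 0.88 without PN1a 1 and PN1a 2 (adjusted p = 0.324). Ccl7, a close relative on the same receptor, read 4.11 and 2.89 in PN1a 1 and 2 and 6.41 to 8.12 in the other samples. Ccl11, the eosinophil attractant that acts on Ccr3, read 3.28 and 3.63 in them and 6.07 to 7.14 elsewhere.

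Ccl5, a T cell and monocyte attractant, read 2.53, 2.81, 7.27, 7.50 and 7.28 in PN1a 1 to 5 and 4.83, 6.26 and 7.01 in PN1b. PN1a 3 to 5 thus lay above all 6 PN1b samples while PN1a 1 and 2 lay below all 6. It differed by -0.57 ± 0.90 (log2) with all samples (adjusted p = 0.78) and 1.30 without PN1a 1 and PN1a 2 (adjusted p = 0.128). Ccl3 and Ccl4, which act on Ccr1 and related receptors, had the same order, with 6.24 to 6.74 and 7.03 to 7.20 in PN1a 3 to 5. In PN1b they ranged over 3.81 to 6.01 and 4.82 to 6.83, and in PN1a 1 and 2 neither exceeded 2.76. Without PN1a 1 and PN1a 2 their log2 fold changes were 1.52 (adjusted p = 0.135) and 1.34 (adjusted p = 0.162). Among the samples titled by letters these were 0.45 (adjusted p = 0.663) and 0.30 (adjusted p = 0.746).

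The interferon-induced ligands of Cxcr3 dropped less. Cxcl10 read 1.82 and 3.03 in PN1a 1 and 2 and 5.01 to 5.83 in the other samples, and Cxcl9 read 3.70 and 2.74 against 5.16 to 6.18. Cxcr3 itself ran from 1.06 to 2.51, with PN1a 2 inside the range of the other samples. Cx3cl1, a ligand tethered to endothelial and epithelial cells, read 4.63 and 4.22 against 6.40 to 7.02 by its stronger probe set. The other Cx3cl1 probe set ran from 1.70 to 2.38 over all samples and did not show the gap. Cx3cr1, its receptor on macrophages, read 4.95 and 4.66 in PN1a 1 and 2, the highest values of the 11 samples, and 4.02 to 4.45 elsewhere.

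Among the receptors, Ackr1, a chemokine-binding protein of venular endothelium, read 1.02, 1.97, 5.87, 6.16 and 6.71 in PN1a 1 to 5 and 4.82, 5.37 and 6.66 in PN1b. Its log2 fold change was -1.27 ± 0.93 (adjusted p = 0.496) with all samples and 0.63 without PN1a 1 and PN1a 2 (adjusted p = 0.483). Ackr3, a scavenger of Cxcl12, read 1.15, 0.35, 2.37, 2.81 and 3.59 in PN1a and 2.86, 3.58 and 4.28 in PN1b. PN1a 1 to 4 lay below all PN1b samples. The log2 fold change was -1.51 ± 0.49 (adjusted p = 0.113) and was called without PN1a 5 alone (adjusted p = 0.0392). It was -0.64 without PN1a 1 and PN1a 2 (adjusted p = 0.373) and -0.88 among the samples titled by letters (adjusted p = 0.639).

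**Figure D3:**
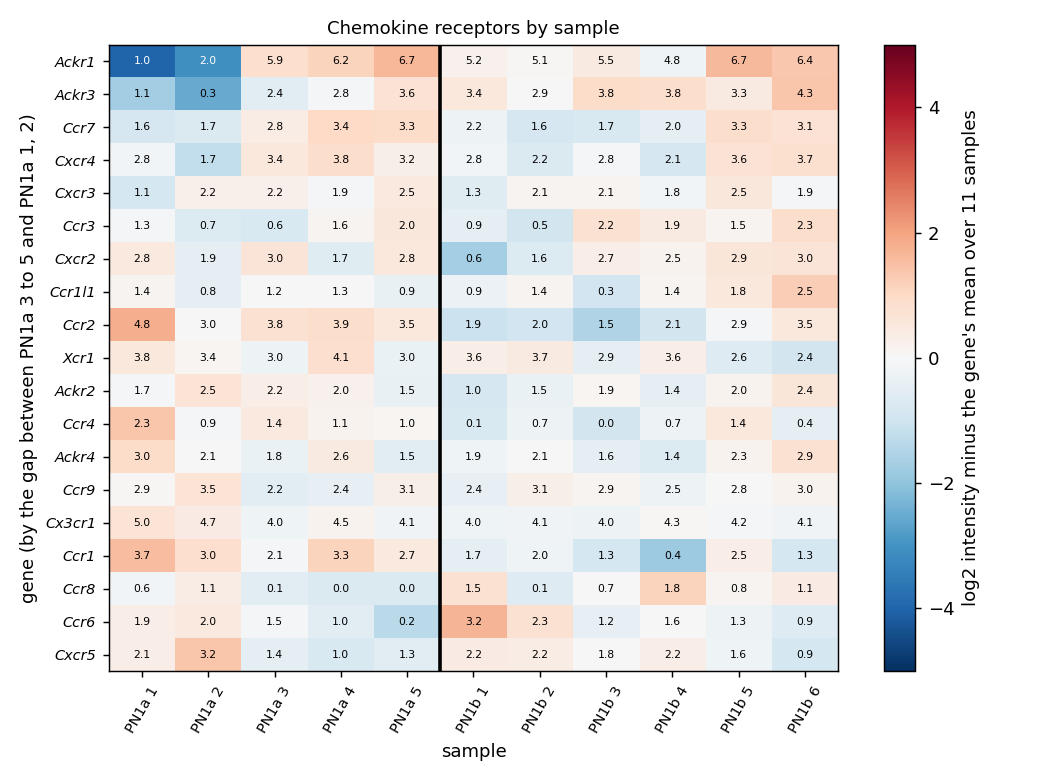
Log2 intensity of the 19 receptor genes (printed values) in each of the 11 samples, coloured by the difference from the gene's own mean and ordered by the gap between PN1a 3 to 5 and PN1a 1 and 2. Ackr1 and Ackr3 alone share the drop in PN1a 1 and PN1a 2, and Ccr1 and Ccr2 are higher in most PN1a samples.

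Without PN1a 1 and PN1a 2, 10 of the 12 ligand genes with the drop lay above 0 (PN1a minus PN1b) and 2 below, where 11 had lain below 0 with all samples, and the smallest adjusted p among them was 0.118. Over all 29 ligand probe sets the median log2 fold change moved from -0.37 to 0.32, over the 19 receptor probe sets from 0.12 to 0.19, and over all probe sets tested from -0.01 to -0.03. The spread of these 12 ligands was 1.20 to 3.73 (SD of log2) over the 5 PN1a samples and 0.06 to 0.80 over PN1a 3 to 5. Among the samples titled by letters 8 of the 12 lay above 0 and 4 below, with a smallest adjusted p of 0.565 (limma).

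**Figure D4:**
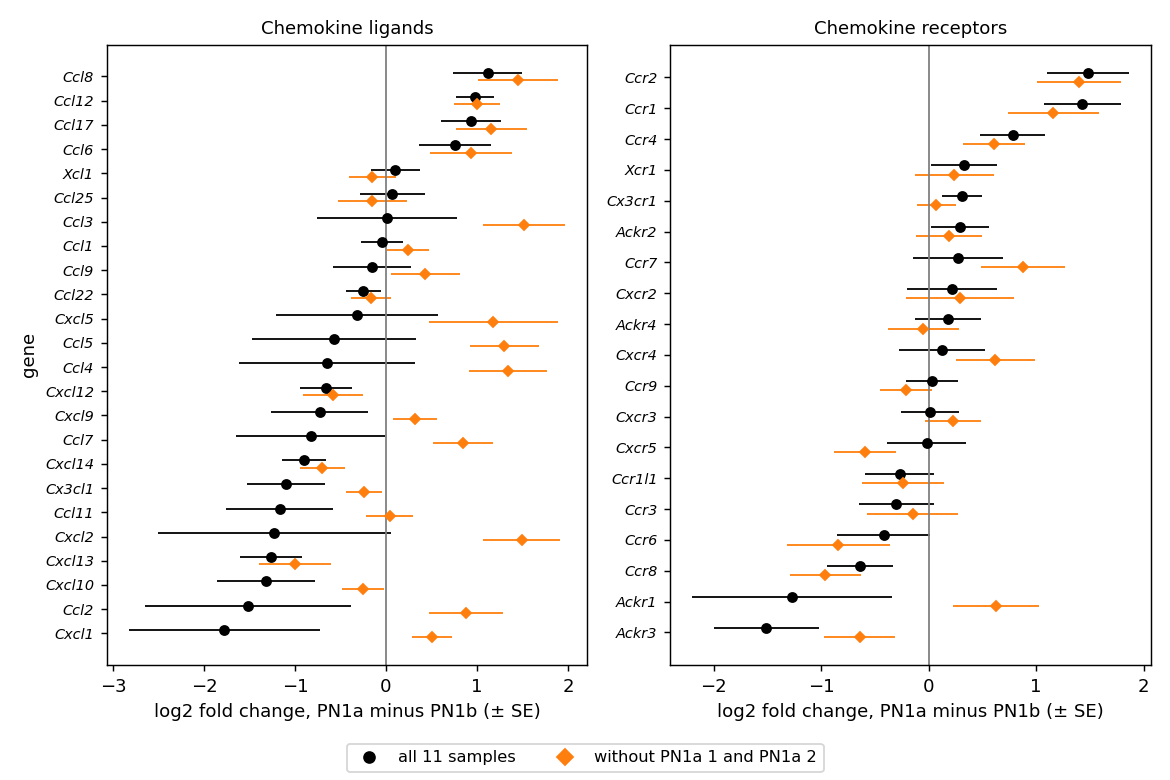
Log2 fold change (PN1a minus PN1b, ± SE) of each ligand gene and receptor gene with all 11 samples (black) and without PN1a 1 and PN1a 2 (orange). Ccl2, Ccl4, Ccl5, Ccl7, Cxcl1, Cxcl2 and Cxcl5 cross 0, while Ccl12, Ccl8, Ccr1 and Ccr2 stay above it.

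Some genes listed as inducers of inflammatory chemokines, a list that also holds inhibitors of NF-kappaB such as Nfkbia, were low in the same samples. With all samples limma called 0 of the 27 measured, with 1 higher and 3 lower at an unadjusted p under 0.05 and 1 higher by the methods' t-test. Without PN1a 1 and PN1a 2, limma called Tnf higher in PN1a (2.19, adjusted p = 0.0073) and no other of the 27. In 13 of the 27, PN1a 1 and PN1a 2 lay below all other samples (10.1% over all probe sets), while in 14 they did not. Il6 read 1.03 and 1.07 in them and 7.45 to 8.93 elsewhere, Tnf 2.83 and 3.26 against 4.86 to 8.00, and Nfkbia, the inhibitor that NF-kappaB itself induces, 5.71 and 5.86 against 8.86 to 9.87. Of 14 immediate early genes, which respond within minutes to a stimulus, 13 lay lower in PN1a 1 and PN1a 2 than in every other sample. Their summed intensity was 1010 to 1140 in these samples and 3890 to 6820 elsewhere. Limma called 0 of the 14, with 11 lower at an unadjusted p under 0.05 and 0 by the methods' t-test.

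Endothelial markers were low in these samples too. The 9 measured summed to 53.5 and 127 in PN1a 2 and PN1a 1, in that order, and to 395 to 590 elsewhere. For 7 of the 9 both samples lay below all others, beside 10.1% of all probe sets tested. Limma called 0 of the 9 (1 lower at an unadjusted p under 0.05, 0 by the methods' t-test). Selp and Sele, adhesion molecules of activated endothelium, read 0.88 and 0.40, and 0.56 and 0.24, against 7.35 to 8.25 and 3.95 to 5.70. Fibroblast and matrix markers summed to 679 to 2300 in PN1a 1 and 2 and 1960 to 3420 elsewhere, and luminal epithelial markers to 253 to 699 against 1150 to 1860. These lists were not low as a whole. Both samples lay below all others for 3 of the 9 fibroblast and matrix markers. The same held for 2 of the 8 luminal markers, Krt8 and Krt18, and Krt18 was the brightest of the 8 in every sample. Col1a1 and Col1a2 were highest of all samples in PN1a 1, and Cdh1 and Elf5 in PN1a 2. Macrophage and monocyte markers summed to 1160 to 1890 in PN1a 1 and 2 and 420 to 1460 elsewhere, and so were not low there. The part of these genes and of the 18S signal in the result was not tested.

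Genes next to each other on a chromosome did not share 1 pattern. In the RefSeq gene order, with at most 3 other protein-coding genes between neighbours, Ccl2, Ccl7, Ccl11, Ccl12, Ccl8 and Ccl1 follow each other on chromosome 11, and further along come Ccl5, Ccl9, Ccl6, Ccl3 and Ccl4. In the first group PN1a 3 to 5 exceeded PN1a 1 and 2 by 5.98, 4.20 and 3.03 (log2) for Ccl2, Ccl7 and Ccl11, and by 0.03, 0.82 and 0.68 for Ccl12, Ccl8 and Ccl1. In the other group the gap was 4.68, 3.77 and 4.98 for Ccl5, Ccl3 and Ccl4, and 1.46 and 0.43 for Ccl9 and Ccl6. On chromosome 9, the run of Ccr9, Xcr1, Ccr1, Ccr1l1, Ccr3 and Ccr2 had gaps of -0.68 to 0.38.

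**Figure D5:**
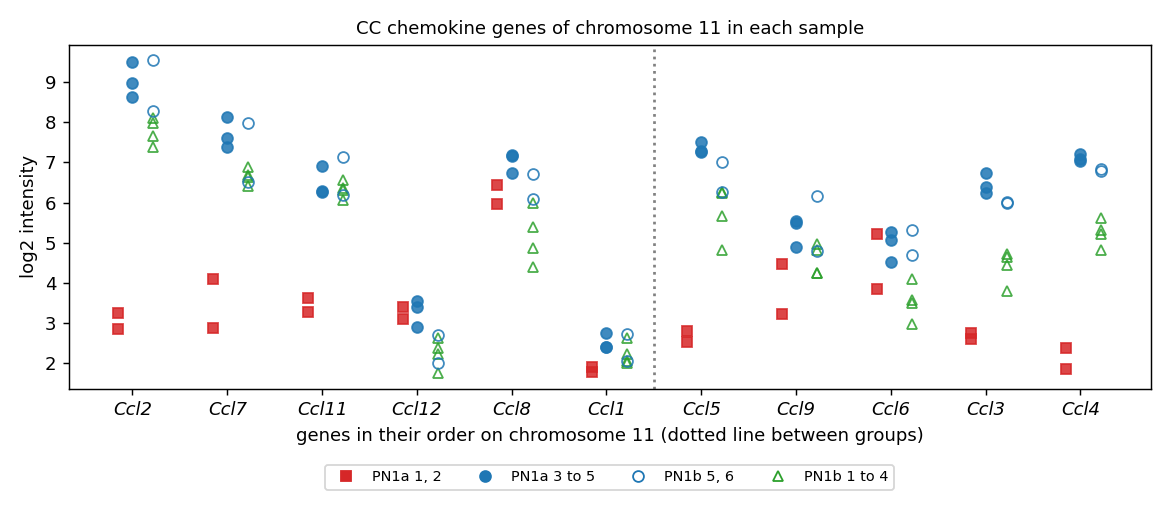
Log2 intensity in each sample for the 11 ligand genes of chromosome 11, in gene order, with the dotted line between both groups of neighbours and symbols for the form of the sample title. PN1a 1 and 2 (squares) are far below the rest for Ccl2, Ccl7, Ccl11, Ccl5, Ccl3 and Ccl4, and within or close to the rest for Ccl12, Ccl8, Ccl1 and Ccl6.

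Of the neighbours without the drop, Ccl8, a monocyte attractant related to Ccl2, read 6.44, 5.97, 6.73, 7.18 and 7.16 in PN1a 1 to 5 and 4.40, 5.69 and 6.70 in PN1b. PN1b 2, PN1b 5 and PN1b 6 lay within the PN1a range. The log2 fold change was 1.12 ± 0.38 (adjusted p = 0.132), 1.45 without PN1a 1 and PN1a 2 (adjusted p = 0.139) and 0.62 among the samples titled by letters (adjusted p = 0.613). Ccl6, a ligand of Ccr1, had a log2 fold change of 0.76 ± 0.40 (adjusted p = 0.327) and Ccl17, a ligand of Ccr4, 0.94 ± 0.33 (adjusted p = 0.142). Ccr4 read 0.86 to 2.30 in PN1a against 0.00 to 1.42 for PN1b (0.78 ± 0.30, adjusted p = 0.18), with 1 sample at the lowest intensity of the table. Ccr8, the receptor for Ccl1, was at that lowest intensity in 2 samples, PN1a 4 and PN1a 5.

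Within PN1b, samples titled by letters and by a number range also differed. PN1b 5 and 6 lay above each of PN1b 1 to 4 for 9 ligand and 8 receptor probe sets, beside 11.7% of all probe sets tested, and below for 1 and 2, beside 14.8%. The median difference (PN1b 5 and 6 minus PN1b 1 to 4) was 0.50 over the ligand probe sets, 0.55 over the receptor probe sets and -0.04 over all. Ccl3 read 6.00 and 6.01 in PN1b 5 and 6 and 3.81 to 4.73 in the others. Ccr2 read 2.88 and 3.52 against 1.49 to 2.06. Macrophage and monocyte markers summed to 798 to 1100 in PN1b 5 and 6 and 420 to 805 in PN1b 1 to 4. Cd14, the brightest of them in every PN1b sample, read 9.40 and 8.67 (log2) in PN1b 5 and 6 and 7.68 to 8.47 in PN1b 1 to 4. Not all of these markers differed so, and C1qa read 4.71 and 2.82 against 3.07 to 5.20. The part of these markers was not tested.

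The stromal ligand Cxcl12, whose receptors are Cxcr4 and Ackr3, was measured by 3 probe sets that disagreed. The strongest read 5.22, 6.07, 6.01, 5.80 and 5.74 in PN1a 1 to 5 and 5.79, 6.24 and 7.45 in PN1b, with its highest values in PN1b 5 and 6. Its log2 fold change was -0.66 ± 0.29 (adjusted p = 0.233), beside 0.00 ± 0.23 and -0.29 ± 0.44 for the others. Cxcr4 ran from 1.69 to 3.79, with PN1b 5 and 6 above PN1b 1 to 4 (0.12 ± 0.40, adjusted p = 0.905).

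The remaining members lay closer between the lines. Ccl9, Ccl22, Ccl25, Ccl1 and Xcl1 had log2 fold changes between -0.25 and 0.10. Xcr1, the dendritic cell receptor for Xcl1, differed by 0.33 ± 0.31 and Ccr7, the homing receptor of dendritic cells and T cells, by 0.27 ± 0.42. Ccr9, the receptor for Ccl25, differed by 0.03 ± 0.24, Cxcr5 by -0.02 ± 0.37, Ccr6 by -0.42 ± 0.43, Ccr3 by -0.30 ± 0.35, Ccr1l1 by -0.27 ± 0.32, Cx3cr1 by 0.31 ± 0.19, Ackr2 by 0.29 ± 0.27 and Ackr4 by 0.18 ± 0.31. These intervals do not show that the lines are alike.

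Of the genes through which the receptors signal, limma called 1 of 27 measured higher and 0 lower (2 higher and 1 lower at an unadjusted p under 0.05). The called one was Vav1, a guanine nucleotide exchange factor of blood cells (1.36 ± 0.26, adjusted p = 0.0175, and 1.16 with adjusted p = 0.0874 without PN1a 1 and PN1a 2). The next by adjusted p were Rgs19, a brake on G proteins (0.78 ± 0.23, adjusted p = 0.0844), and Grk5, a receptor kinase (-0.68 ± 0.26, adjusted p = 0.179). Of 12 genes that cleave or present chemokines limma called 0 (2 higher at an unadjusted p under 0.05, 1 higher by the methods' t-test), with the syndecans Sdc1 (0.73 ± 0.21, adjusted p = 0.0837) and Sdc3 (0.91 ± 0.27, adjusted p = 0.0891) first. The related genes Pf4, Ccrl2 and Cmklr1 were not called, and Ccrl2, a chemokine-receptor-like protein, read 2.53 and 2.60 in PN1a 1 and 2 and 3.76 to 5.76 elsewhere.

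Markers of other leukocytes were measured beside the receptors they carry. Limma called 0 of 13 T and NK cell markers (3 lower at an unadjusted p under 0.05, 1 lower by the methods' t-test), which summed to 67.1 to 132 in PN1a against 86.4 to 127 for PN1b. It called 0 of 9 neutrophil markers (1 higher at an unadjusted p under 0.05, 1 higher by the methods' t-test), with sums of 133 to 868 in PN1a against 93.8 to 726 for PN1b and Ngp at the lowest intensity in 2 samples. Ltf (1.19 ± 0.87, adjusted p = 0.494) was the brightest of the 9 in every sample except PN1b 4 and weighed most in these sums. Of the 9 fold changes 3 lay above 0, with a median of -0.19. Mast cell markers summed to 48.3 to 120 and 84.5 to 182, eosinophil markers to 10.6 to 14.3 and 10.3 to 13.7, and dendritic cell and MHC class II genes to 821 to 1320 and 229 to 875, in PN1a and PN1b in that order. Limma called none of these 3 lists' genes (for mast cells 1 lower, for eosinophils 0 and for dendritic cells 4 higher at an unadjusted p under 0.05, and 0 in each by the methods' t-test). Kit (-0.62 ± 0.30, adjusted p = 0.292) was the brightest of the 7 mast cell markers in every sample and weighed most in their sums. Which cells expressed it was not tested. Basal and myoepithelial markers, a check of the labelled tissue, summed to 575 to 1170 in PN1a against 898 to 1690 for PN1b. Trp63 was called lower (-1.55 ± 0.33, adjusted p = 0.0262), also without PN1a 1 and PN1a 2 (-1.48, adjusted p = 0.0157). Of the 7 fold changes 1 lay above 0, with a median of -0.39. It was that of Krt17 (1.21 ± 0.44, adjusted p = 0.156), which was called higher without PN1a 1 and PN1a 2 (1.99, adjusted p = 0.00274). Acta2 was the brightest of the 7 in every sample. Adipocyte markers summed to 51.5 to 163 in PN1a against 201 to 260 for PN1b, with Lpl called lower (-1.81 ± 0.43, adjusted p = 0.0415). The difference of Lpl was -0.94 without PN1a 1 and PN1a 2 (adjusted p = 0.0307). Lpl was the brightest of the 6 adipocyte markers in every sample and so weighed most in their sum. Of these 6 markers 3 had fold changes above 0, with a median log2 fold change of -0.05.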

How the data were processed

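RNA of 5 PN1a samples and 6 PN1b samples was measured on Affymetrix MG_U74Av2 arrays. The authors used dChip (quantile normalization, PM-MM model) and deposited 1 linear intensity per sample for each of 12488 probe sets. Neither step could be repeated from the arrays. Intensities ran from 1 to 1938, with 0.817% at the lowest value.

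Here log2 values were used with no pseudocount and without the 66 control probe sets. The lines were compared on the whole table with limma 3.58.1 under R 4.3.3 (lmFit and eBayes, two-sided, no covariate, Benjamini-Hochberg over 12422 probe sets). The steps were tested on simulated data. Symbols came from the array's annotation (10833 probe sets with 1 symbol, 396 with several, 1193 with none here), and where several probe sets target a gene, that of highest mean stands for it. Groups, title forms and title endings came from the sample labels. Promoters and gene order are from RefSeq (GRCm38.p6).

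Every member is accounted for. Values in every sample are given for members called in any fit other than those of the title ending, members whose lines do not overlap, and members that the study names, 1 of which is not reported here. From the marker and pathway lists, called genes and up to 3 with the smallest adjusted p were taken, not all of which are named. Cxcl1, Cxcl2, Ackr1, Ccl8, Il6, Tnf, Nfkbia, Selp and Sele, with other members described by their ranges, were picked after their values were seen. The members and lists were chosen with earlier results of these data known. Alternatives were other pseudocounts, repeated quantile normalization, median centring, a filter at the median, other thresholds, the methods' t-test, trend and robust eBayes, the title ending as a block or held constant, averaged probe sets per gene, and samples left out. log2(value + 1) and the samples titled by letters alone were chosen after seeing the data, the former because the study's own table of these samples lists the deposited intensity plus 1. Python 3.11.15 with matplotlib 3.10.9 drew the figures.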

Additional observations from a re-analysis of the deposited data

Results flagged for a closer look

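In 4 cases a single sample lay far from the rest of its line, by Dixon's test on log2 intensity at its 95% critical value. Chance alone gives about 1 in 20 groups, and 86 groups of 43 genes were tested. Ccl7 read 7.98 in PN1b 5 and 6.41 to 6.88 in the other PN1b samples. Cxcl5 read 7.38 in PN1b 5 and 3.49 to 4.93 in the others. Cxcl14 read 4.13 in PN1a 2 and 4.87 to 5.12 in the other PN1a samples. Xcl1 read 4.53 in PN1a 2 and 3.38 to 3.62 in the others.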

How the results depend on the processing

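The 1 ligand probe set called higher in PN1a (Ccl12) became 0 on log2(value + 16), where its log2 fold change of 0.29 fell under the fold threshold, with a filter at the median, which removed it, with the methods' t-test after adjustment, at a fold of at least 2, with the title ending as a fixed or random block, among the samples with the shared ending, among those titled by letters, and without PN1a 1 and PN1a 2. The 0 ligand probe sets lower became 1 on log2(value + 16), on log2(value + 1), with the filter at the median, with trend and robust eBayes and with the methods' t-test on log2(value + 1), and 2 with that t-test on log2 (p under 0.01). The 0 receptor probe sets higher became 2 on log2(value + 1), with median centring, with trend and robust eBayes and with either t-test at p under 0.01. With each sample left out in turn, the counts ran from 0 to 1 (ligands higher), 0 to 1 (ligands lower), 0 to 2 (receptors higher) and 0 to 1 (receptors lower). Except for the filter and the fold thresholds, the cause was not tested.

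Some fold changes turned sign and moved by more than their standard error over all samples, none of them called in any fit. Without PN1a 1 and PN1a 2 these were Ackr1 (0.63), Ccl1 (0.24), Ccl2 (0.88), Ccl4 (1.34), Ccl5 (1.30), Ccl7 (0.85), Ccl9 (0.43), Ccl11 (0.04), Cxcl1 (0.51), Cxcl2 (1.49), Cxcl5 (1.18) and Cxcl9 (0.32). With the title ending as a fixed block, and with the same values among the samples of the shared ending, they were Ackr2 (-0.22), Ackr4 (-0.37), Ccl3 (-1.06), Ccl6 (-0.22), Ccl22 (0.04), Ccr6 (0.23), Ccr7 (-0.64), Cxcr2 (-0.51), Cxcr4 (-0.69) and Cxcr5 (0.55). Among the samples titled by letters they were Ackr2 (-0.31), Ackr4 (-0.60), Ccl2 (0.12), Ccl5 (0.71), Ccl6 (-0.05), Ccl7 (0.46), Ccl22 (0.14), Ccr9 (-0.33), Cxcl1 (0.17), Cxcl2 (0.58) and Cxcr2 (-0.44). Ccl12, Ccr1, Ccr2, Cxcl13, Cxcl14 and Ackr3 kept their sign in every fit, with adjusted p of 0.0182 to 0.62, 0.0246 to 0.679, 0.0209 to 0.757, 0.0378 to 0.725, 0.0256 to 0.762 and 0.0392 to 0.676. No paired analysis was possible because the sample titles share no replicate number between the lines. Signals near the lowest intensity, as for Ccr4 and Ccr8, limit what could be seen there.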
